A study of Mus musculus with 6 samples.

Results

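The transcript levels of the adult wildtype mouse hippocampus are described here, gene by gene and by family and cell class. The members are the genes whose wildtype FPKM, the authors' fragment count scaled to transcript length and library size, was 1 or more, and 12516 of the 23235 genes in the table, or 53.9%, met that rule. Poly(A) RNA was sequenced from the hippocampus of 6 male mice aged 60 to 70 days. The 3 wildtype mice were Rbfox1 fl/fl; +/+, that is, they carried floxed alleles of the splicing regulator gene Rbfox1 without Cre. The 3 Nes-cKO mice were Rbfox1 fl/fl; Nes/+, where Nes stands for Cre driven by the Nestin promoter, which is active in neural progenitors and so reaches neurons and glia. Because both groups shared the floxed alleles, the levels are those of a floxed line and not of an unmodified strain. The Nes-cKO values enter below as a second set of mice that the rule did not use.

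The hippocampus is a folded sheet of excitatory neurons, the granule cells of the dentate gyrus and the pyramidal cells of fields CA3, CA2 and CA1, set among inhibitory interneurons, astrocytes, oligodendrocytes, microglia and vessels. It is known for rapid changes in synaptic strength and for its part in forming memories. Messenger RNA from all these cells was pooled in each library, so fewer cells of a type and less RNA per cell cannot be told apart. FPKM divides reads by transcript length and therefore allows levels to be set side by side between genes, as far as the annotated length is that of the RNA made.

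The table held 1 value per gene for each genotype, so no spread between the 3 mice could be given, and sequencing depth is unknown. As a stand-in for error, the wildtype value was set beside the Nes-cKO value of the same gene, a gap that holds the genotype as well as the mice. The median gap was 1.11-fold for genes between 1 and 3 FPKM and 1.07-fold between 10 and 30 FPKM. The gap within which 95% of genes fell was 1.68-fold between 1 and 3 FPKM, 1.41-fold between 3 and 10, 1.32-fold from 10 up to 300 and 1.38-fold above 300. Neighbours in an order of levels are called apart below only where they differed by more than that fold. The fold is a gap within the same gene and does not cover errors of annotated length between genes. The floor itself cut through a continuous run of values, with 5730522E02Rik at 1.00123 FPKM, Gm514 at 1.00098 FPKM and Lrrc26 at 1.00063 FPKM just inside it. Cand2 at 0.999957 FPKM, Mme at 0.999861 FPKM and Zfp354b at 0.999842 FPKM lay just outside. Below the floor, 6302 genes had a value above 0 and 4417 genes were listed at 0, and together they held 0.368% of the summed FPKM.

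The top of the list was taken by rows for small RNAs. Of the 25 highest genes, 14 were small nucleolar RNAs or microRNA hairpins, led by Snord91a at 24992 FPKM, Snord42b at 17572 FPKM and Snord69 at 14374 FPKM. The others ran from Mir3064 at 12146 FPKM to Mir137 at 939 FPKM. Small nucleolar RNAs guide chemical modification of ribosomal RNA and mostly lie in introns of host genes. The table held 744 rows classed as small RNA, a few of them of other kinds, such as Rpph1 and Rmrp. Of the 744 rows 80 reached the floor, and these 80 held 26.2% of the summed FPKM of all genes at the floor. In the Nes-cKO column 26 of the 80 were listed at 0, including Snord42b, against 1 of the 12436 other genes. The microRNA rows are shown because their length bears on the unit: 29 of 38 with a RefSeq hairpin were shorter than the 100 bases of a read pair. Hairpins ran from 67 to 132 bases with a median of 85. For 3 of the highest microRNA rows the mature sequences follow (RefSeq, GRCm38.p6, the seed of bases 2 to 8 in capitals). No seed was shared among them.
mmu-miR-3064-5p, Mir3064: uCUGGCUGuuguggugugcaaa
mmu-miR-3064-3p, Mir3064: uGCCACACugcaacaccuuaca
mmu-miR-343, Mir343: uCUCCCUUcaugugcccaga
mmu-miR-568, Mir568: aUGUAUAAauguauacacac
Mir3064 was listed at 12146 FPKM with a hairpin of 67 bases. Mir343 was listed at 1341 FPKM with a hairpin of 75 bases. Mir568 was listed at 1305 FPKM with a hairpin of 83 bases. A poly(A) library does not measure the mature microRNA, and no level of these arms is drawn from the rows. Rows with the biotype of small nucleolar RNA held 18.8% of the sum and microRNA rows 7.01%. Snord42b was listed at the same locus as the ribosomal protein gene Rpl23a. Whether reads of such rows came from the small RNA or from a host transcript was not tested. Shares below are of the sum over all genes at the floor unless the small-RNA rows are said to be left out, which raises every other share by a factor of 1.35.

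Leaving the small-RNA rows out changed how concentrated the transcriptome appeared. With them the 10 highest genes held 22.6% of the summed FPKM, and without them 3.95%. The 100 highest held 36.4% with them and 18.0% without, and the 1000 highest held 64.7% and 53.3%. Without the small RNAs, 837 genes carried 50% of the sum and 5874 genes carried 90%. The median gene stood at 8.99 FPKM, with quartiles of 3.92 and 20.7 FPKM. By bands of level, 6676 genes between 1 and 10 FPKM held 10.4% of the sum without small RNAs, 5252 genes between 10 and 100 FPKM held 48.5%, and the 508 genes at 100 FPKM or more held 41.1%. Coding genes numbered 11947 and held 72.1% of the whole sum, and 310 long noncoding RNA genes held 0.709%. The same genes stood at the floor in most cases in both genotypes: 12343 passed in both columns, 173 in wildtype alone and 231 in Nes-cKO alone.

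**Figure D1:**
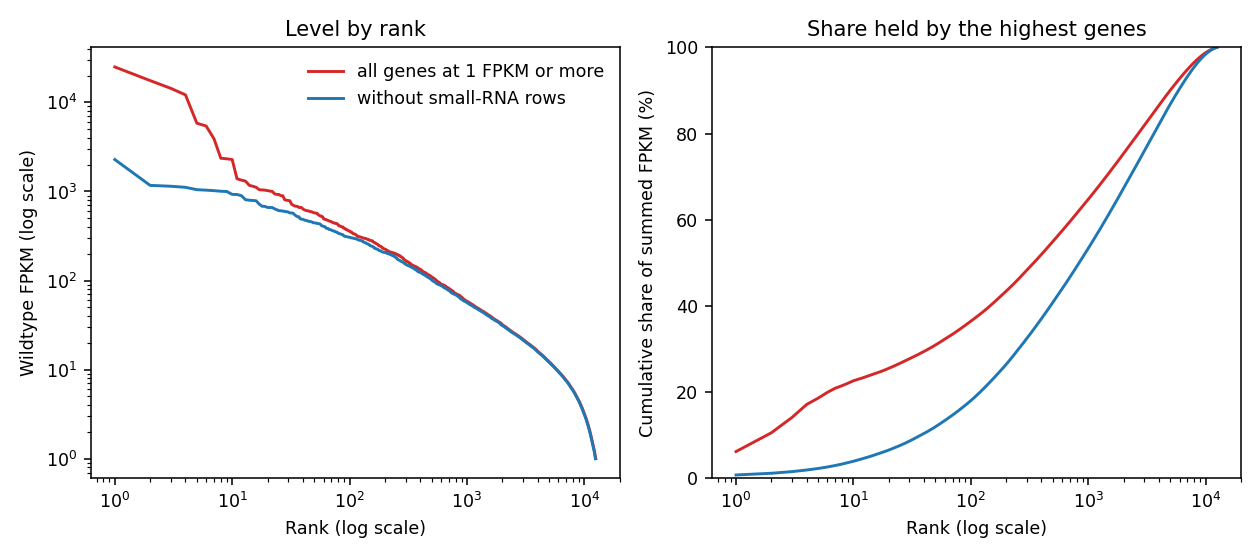
Left, wildtype FPKM against rank, both on log scales; right, the cumulative share of summed FPKM in percent against rank, with all genes at the floor in red and without small-RNA rows in blue. The curves part over the first 10 ranks, which hold 22.6% of the sum with the small RNAs and 3.95% without, and meet at lower levels.

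Outside the small RNAs the highest gene was Fth1, the iron-storing heavy chain of ferritin, at 2284 FPKM or 0.566% of the sum. It stood apart from Cst3, the secreted protease inhibitor cystatin C, at 1171 FPKM. Calm2, encoding the calcium sensor calmodulin, followed at 1145 FPKM and Eef1a1, the translation elongation factor, at 1113 FPKM. The next places went to genes of several cell types and of every cell alike. Cpe, the enzyme that trims peptide hormone precursors, was at 1047 FPKM, and Ppia, the folding enzyme cyclophilin A, was at 1035 FPKM. Tmsb4x, which binds actin monomers, stood at 1021 FPKM and Mbp, the basic protein of myelin, at 1006 FPKM. Aldoa of glycolysis reached 998.9 FPKM. Snap25, a SNARE of the presynaptic membrane, was the highest gene of vesicle release at 927 FPKM. Apoe, the main lipid carrier made by astrocytes, followed at 925 FPKM and Hpca, the calcium sensor hippocalcin, at 896 FPKM. These places from Cst3 to Hpca lay within 1.38-fold of their neighbours. Farther down the first 25 came Hspa8 at 807 FPKM, Rps29 at 798 FPKM, Gapdh at 791 FPKM, the synaptic kinase gene Camk2a at 786 FPKM and the selenoprotein gene Sepw1 at 721 FPKM. Gnas, the stimulatory G protein alpha subunit, was at 682 FPKM. The calmodulin-binding neurogranin gene Nrgn was at 662 FPKM. The sodium pump was represented by its beta subunit gene Atp1b1 at 659.9 FPKM. Calm3, Cox8a and Atp6v0c, for calmodulin, cytochrome oxidase and the vesicular proton pump, stood at 659.6, 638 and 623 FPKM.

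By summed FPKM, 2 families that serve every cell, cytosolic ribosomal proteins and oxidative phosphorylation, held the largest shares of the named families. FPKM divides by transcript length, and with each gene multiplied by its GENCODE transcript length that order turned: ribosomal proteins held 2.06% and oxidative phosphorylation 1.54%, below ubiquitin conjugation at 2.34% and vesicle release at 2.10%. The cytosolic ribosomal proteins, the protein components of the translating ribosome, held 4.88% of the sum, or 6.61% without small RNAs. Of 91 rows 88 were at the floor and 74 reached 100 FPKM, with a median over all 91 of 199 FPKM. Rps29 was highest, and Rplp1 at 596 FPKM was also among the leading genes. No ribosomal protein dominated, since the 3 highest held 10.5% of the family. Their counterparts in the mitochondrial ribosome were all present but low: 76 of 76 rows were at the floor, with a median of 19.2 FPKM and a highest value of 73.7 FPKM for Mrps21. Nuclear genes of oxidative phosphorylation, which encode the respiratory chain and ATP synthase, held 3.18%, with 91 of 95 at the floor and a median of 96.9 FPKM. Cox8a led them, followed by Atp5b at 473 FPKM and Cox4i1 at 458 FPKM. Genes encoded in the mitochondrial genome were not analysed here. Glycolysis held 1.15% over only 20 genes at the floor of 26, of which Aldoa, Gapdh and Pkm2 at 431 FPKM made up 48.0%. The isoforms known from other tissues were low or silent: Hk2 stood at 0.885 FPKM and Pklr at 0.0307 FPKM, while the testis isoforms Pgk2 and Ldhc were listed at 0. In the citric acid cycle 21 of 21 genes on the list were at the floor, from Mdh2 at 189 FPKM down to Suclg2 at 7.63 FPKM.

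Several further housekeeping groups were nearly complete. Translation factors had 72 of 73 rows at the floor and held 1.22%, and after Eef1a1 came Tpt1 at 454 FPKM and Eef1a2 at 362 FPKM. Eef1a2 is the elongation factor isoform of neurons and muscle. Chaperones held 1.62% with 112 of 129 rows at the floor, led by Ppia, Hspa8 and Hsp90ab1 at 607 FPKM. The proteasome had 46 of 49 rows at the floor with none at 100 FPKM, and Psmb7 was highest at 91.2 FPKM. Aminoacyl-tRNA synthetases were complete at 34 of 34, with Nars highest at 60.6 FPKM. Genes for splicing and RNA-binding proteins had 178 of 193 rows at the floor and held 1.34%, with Snrpn at 315 FPKM, Ddx5 at 205 FPKM and Hnrnpk at 139.5 FPKM on top. Histone genes were the exception, with 19 of 81 rows at the floor. The highest were H3f3a at 90.2 FPKM, H2afz at 81.8 FPKM and H3f3b at 79.4 FPKM, all replacement forms made outside DNA replication and with polyadenylated messages. Most replication-dependent histone messages lack the poly(A) tail by which these libraries were made.

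**Figure D2:**
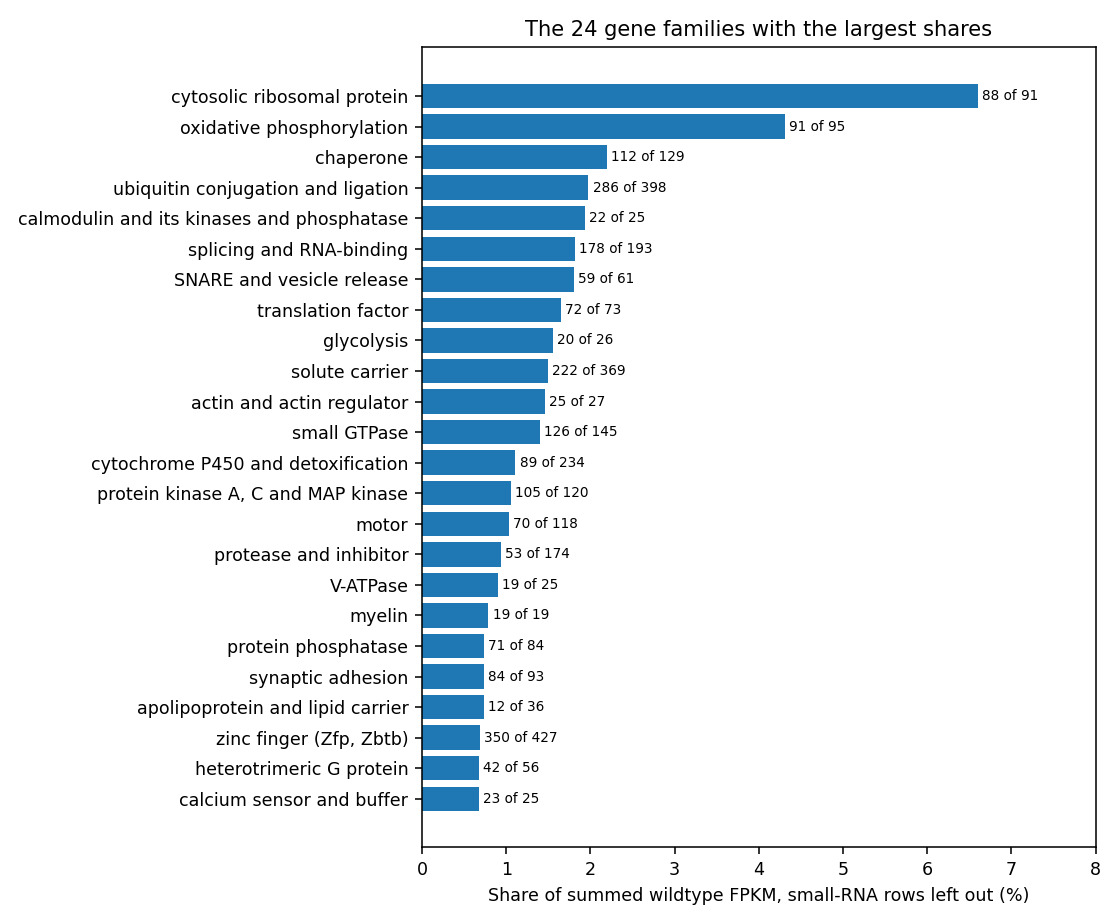
Bars give the share of summed wildtype FPKM, in percent with small-RNA rows left out, of the 24 named families with the largest shares; the text at each bar is the number of genes at the floor of all rows in the family. Cytosolic ribosomal proteins at 6.61% and oxidative phosphorylation at 4.31% stand above all others drawn, which hold 2.20% or less; weighted by transcript length they hold 2.06% and 1.54%, below ubiquitin conjugation at 2.34% and vesicle release at 2.10%.

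Signalling proteins of neurons came next. The group of calmodulin, its kinases and its phosphatase held 1.43% with 22 of 25 rows at the floor. Calmodulin carries the calcium signal at the synapse to the kinase CaMKII and the phosphatase calcineurin. Camk2a at 786 FPKM was apart from Camk2b at 344 FPKM, while Camk2g at 42.3 FPKM and Camk2d at 9.03 FPKM were far lower. The calcineurin subunits Ppp3ca and Ppp3r1 stood at 520.0 and 258 FPKM. Across all coding genes at the floor, 15 sets of genes, 31 genes in all, had an identical translation of the GENCODE transcript taken for each symbol. Among them were Rpl36a with Rpl36al at a summed 266 FPKM and the histone pair H3f3a with H3f3b at 169.6 FPKM. The count also includes Lass1 with Gdf1, a match that rests on the transcript taken and was not checked further. Eno1 and Gm5506 summed to 171 FPKM, and reads of such near-identical copies may have been split between them, so the division within that pair is uncertain. The group of calcium sensors and buffers, hippocalcin and its relatives together with others such as Calb1 and Pvalb, had 23 of 25 rows at the floor. After Hpca at 896 FPKM its next highest were Vsnl1 at 184 FPKM and Hpcal4 at 180.4 FPKM. The 14-3-3 adaptors, which bind phosphorylated proteins, had all 6 genes above 100 FPKM, with a median of 272 FPKM, and Ywhah at 571 FPKM was highest.

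The machinery of vesicle release had 59 of 61 members at the floor and held 1.33%. After Snap25 came the vesicle proteins Syp at 437 FPKM and Vamp2 at 405 FPKM, then Rab3a at 305 FPKM and the calcium sensor Syt1 at 302 FPKM. Nsf at 283 FPKM and Cplx2 at 279.9 FPKM followed, and from Syp to Cplx2 no neighbours were apart. Among 58 neighbouring pairs of the group, 54 were not apart, so the order below Snap25 is loose. The scaffolds of the postsynaptic density were complete at 21 of 21, with the dendritic gene Ddn at 549 FPKM, Ppp1r9b at 204 FPKM and Dlg4, encoding PSD-95, at 188 FPKM. Homer2 was the lowest scaffold at 7.50 FPKM. Actin and its regulators held 1.08% with Tmsb4x, Cfl1 at 593 FPKM, Actg1 at 472 FPKM and Actb at 411 FPKM on top. Tubulins had 20 of 25 rows at the floor, and Tubb4a at 269.99 FPKM, Tubb2a at 209.6 FPKM and Tuba1a at 205 FPKM led them.

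Families of sense organs and epithelia were almost absent. Of 1489 olfactory, vomeronasal and taste receptor rows 4 reached the floor, and the highest were Olfr613 at 6.26 FPKM and Vmn1r58 at 6.25 FPKM. Keratins had 9 of 57 rows at the floor, and the highest, Krtcap2 at 49.5 FPKM, is named for keratinocytes and is no keratin but a subunit of the oligosaccharide transferase. Immune receptor and cytokine rows had 102 of 458 at the floor, led by the widely made Cd81 at 166 FPKM, Ly6h at 137 FPKM and Ly6e at 86.7 FPKM. Rows with clone or predicted names had 1066 of 3752 at the floor. In contrast, zinc finger regulators were broad and low, with 350 of 427 rows at the floor and a median over all rows of 3.06 FPKM. Only Zfp238 among them passed 100 FPKM, at 107 FPKM.

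By the medians of the marker lists, neurons in general and astrocytes stood at the top. That order also depends on which genes were put on each list, so it is not an order of cell number. All 16 markers of neurons in general were at the floor with a median of 153 FPKM, from Snap25 down to the RNA-binding Elavl4 at 12.9 FPKM. Glutamatergic markers were present at 14 of 14 with a median of 69.8 FPKM. Hpca, Camk2a and Nrgn were their highest, and the vesicular glutamate transporter gene Slc17a7 reached 373 FPKM against 4.04 FPKM for Slc17a6, its subcortical relative. Most markers on the list of each hippocampal field were at the floor. For comparison, the median over all genes at the floor without small RNAs was 8.99 FPKM, and the dentate median lay close to it. A list median near that value does not set a field apart from genes in general. Dentate granule cell markers were at the floor in 18 of 18 cases with a median of 8.90 FPKM, led by the secreted synaptic organiser C1ql3 at 51.5 FPKM, Calb1 at 45.1 FPKM and C1ql2 at 30.6 FPKM. Prox1, the factor that defines granule cell identity, stood at 10.3 FPKM and Glis3 was lowest at 1.65 FPKM. The CA1 list had 12 of 12 at a median of 16.1 FPKM, led by Mpped1 at 60.8 FPKM, Nov at 45.2 FPKM and Wfs1 at 43.8 FPKM. For CA3, 13 of 13 were present at a median of 11.9 FPKM, with Nnat at 232 FPKM, Chgb at 206 FPKM and Spock1 at 48.2 FPKM on top and Coch lowest at 1.43 FPKM. CA2, a narrow field, had 8 of 11 at the floor, led by Pcp4 at 174 FPKM, Ptpn5 at 40.0 FPKM and Necab2 at 37.1 FPKM, while the vasopressin receptor gene Avpr1b was at 0.116 FPKM. Several of these markers, among them Nnat, Chgb and Calb1, are also made by other neurons, so their level is not that of the field alone.

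Interneuron markers were found at the floor in 27 of 28 cases with a median of 9.67 FPKM. The neuropeptide genes Cck at 312 FPKM and Sst at 302 FPKM were highest and were not apart from each other. Both are levels of the whole tissue, and what part of them came from interneurons was not tested. Gad1, which makes the transmitter GABA, was at 82.2 FPKM and Npy at 77.3 FPKM. The classes named for calcium-binding proteins and peptides were visible through Pvalb at 29.3 FPKM, Calb2 at 28.9 FPKM and Vip at 9.62 FPKM. The lineage factors were low, with Lhx6 at 4.55 FPKM and Dlx2 at 1.40 FPKM, and the lowest marker was Crh at 0.713 FPKM. Cell classes known to be rare in the adult stood near the floor. The progenitor and immature neuron list had 9 of 17 at the floor and a median of 1.27 FPKM. Its highest were Stmn1 at 202 FPKM, Hopx at 54.9 FPKM and Fabp7 at 30.3 FPKM, which mature cells also make. The more restricted Dcx was at 2.17 FPKM, Eomes at 0.238 FPKM and the division marker Mki67 at 0.228 FPKM. The mossy and Cajal-Retzius list had 4 of 10 at the floor, led by Calb2 and with Lhx5 lowest at 0.0769 FPKM.

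Medians of the glial marker lists differed strongly by class. Astrocyte markers were complete at 24 of 24 with a median of 119 FPKM, and Cst3, Cpe and Apoe led, although Cst3 and Cpe are made by other cells too. The glutamate transporter genes Slc1a2 and Slc1a3 stood at 195 and 133 FPKM, Gfap at 106 FPKM and the water channel gene Aqp4 at 24.9 FPKM, and Sox9 was lowest at 4.78 FPKM. Oligodendrocyte markers were complete at 22 of 22 with a median of 42.6 FPKM. Mbp was highest, and Qdpr stood at 94.3 FPKM. Mbp also held 42.9% of the myelin family. Precursors were present at 13 of 13 with a median of 7.96 FPKM, from Bcas1 at 44.1 FPKM to Neu4 at 2.11 FPKM, and their defining receptor gene Pdgfra was at 7.40 FPKM. Microglial markers were at the floor in 20 of 22 cases with a median of 8.70 FPKM. The lysosomal protease gene Ctss stood at 42.8 FPKM, the complement gene C1qa at 36.8 FPKM and P2ry12 at 15.2 FPKM. The 2 under the floor, Mrc1 at 0.510 FPKM and Cd163 at 0.245 FPKM, are markers of macrophages at vessels and borders. Endothelial markers were present at 19 of 19 with a median of 5.59 FPKM. Their highest, the widely made Bsg at 207 FPKM, stood far above Slc2a1 at 28.1 FPKM and Ly6c1 at 23.3 FPKM, and Vwf was lowest at 1.48 FPKM. Pericyte and smooth muscle markers had 10 of 13 at the floor with a median of 1.85 FPKM, led by Vtn at 27.9 FPKM.

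Markers of other tissues checked the dissection. The liver list had 1 of 13 at the floor, Ttr at 12.4 FPKM, which choroid plexus also makes, and albumin (Alb) was at 0.0174 FPKM. Pancreas and gut had 1 of 12 at the floor, Cela1 at 1.09 FPKM, testis and egg 3 of 11, led by Ddx4 at 1.67 FPKM, and muscle 3 of 13, led by Pvalb. Blood had 3 of 13, all globins, with Hba-a1 at 9.98 FPKM and Hbb-b1 at 5.35 FPKM, and the T cell gene Cd3e was listed at 0. Cell bodies of monoamine and cholinergic neurons, which send axons here from elsewhere, had 2 of 18 at the floor, Ddc at 2.25 FPKM and Slc18a2 at 1.72 FPKM, with Chat at 0.0341 FPKM and Slc6a3 at 0.0573 FPKM. Brain neighbours left clearer values. The choroid plexus and ependyma list had 10 of 17 at the floor, and its more restricted genes Folr1 at 0.293 FPKM and Kcnj13 at 0.109 FPKM were under it. Thalamus and habenula markers were at the floor in 12 of 14 cases with a median of 3.96 FPKM, with Calb2 and Lhx2 at 22.5 FPKM highest and Gbx2 at 0.0654 FPKM and Pou4f1 at 0.0589 FPKM lowest. Cerebellar markers were at the floor in 13 of 16 cases with a median of 3.84 FPKM. Calb1, Itpr1 at 36.4 FPKM and Pvalb, all made by hippocampal neurons as well, were highest, but Pcp2 of Purkinje cells was at 4.60 FPKM, Cbln3 of cerebellar granule cells at 3.98 FPKM and Gabra6 at 3.51 FPKM. The same list had a median of 8.95 FPKM in the Nes-cKO column. Striatal markers had 8 of 12 at the floor with a median of 2.80 FPKM, and Drd1a at 1.08 FPKM and Drd2 at 1.04 FPKM were near it. Neocortical layer markers had 13 of 17 with a median of 9.14 FPKM, many of which hippocampal neurons make, and Foxp2 of the deep layers was at 0.150 FPKM. Meningeal markers had 10 of 13, led by Ptgds at 311 FPKM, with the collagen genes Col1a1 at 0.751 FPKM and Col3a1 at 0.251 FPKM under the floor. Whether tissue next to the hippocampus entered the samples was not tested.

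**Figure D3:**
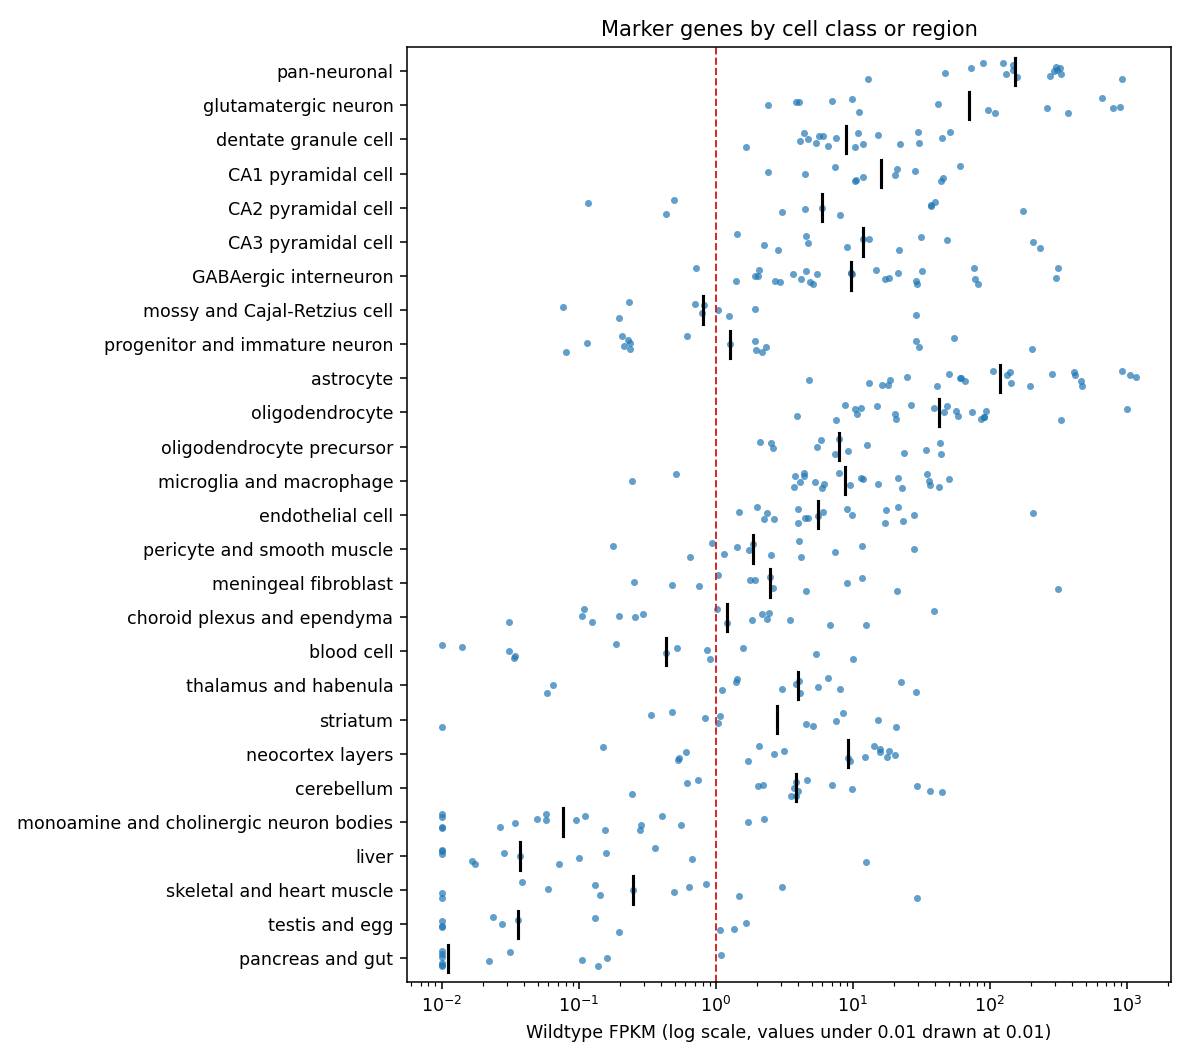
Each point is the wildtype FPKM of a marker gene on a log scale, 1 row per cell class or region, with the median of all genes found as a black bar and the floor of 1 FPKM as a dashed red line. Medians run from 153 FPKM for neurons in general and 119 FPKM for astrocytes to 0.0767 FPKM for monoamine and cholinergic cell bodies and 0.0111 FPKM for pancreas and gut.

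Glutamate receptors, the ion channels that carry excitatory transmission, had clear leading subunits. All 4 AMPA receptor genes were at the floor and all were apart in the order Gria1 at 171 FPKM, Gria2 at 126 FPKM, Gria3 at 38.0 FPKM and Gria4 at 13.4 FPKM. Their auxiliary subunit gene Cnih2 was higher still at 251 FPKM, and Cacng8 stood at 76.4 FPKM. Among kainate receptor genes Grik5 was highest at 52.0 FPKM. Grik2 at 14.2 FPKM and Grik4 at 13.2 FPKM were not apart, and Grik3 at 5.50 FPKM and Grik1 at 3.77 FPKM were lower. Of the NMDA receptor genes the obligatory subunit Grin1 stood at 119 FPKM, 10.9-fold above the next, Grin2c at 10.8 FPKM. Grin2c was not apart from Grin2a at 9.23 FPKM, nor Grin3a at 4.53 FPKM from Grin2b at 3.84 FPKM. Grin2d was at 2.20 FPKM and Grin3b, at 0.0765 FPKM, was under the floor. Annotated lengths differ widely here: the GENCODE transcript of Grin1 spans 4238 bases, that of Grin2a 14634 and that of Grin2b 24060, and a level per length falls where the annotated transcript is longer than the RNA made. Those of Gria1 and Gria2 span 5399 and 10371 bases. The part of length in the order of Gria1 and Gria2 and in the low Grin2b value was not tested. Metabotropic receptors, which signal through G proteins, had 7 of 8 genes at the floor. Grm5 at 28.7 FPKM was apart from Grm2 at 16.9 FPKM, while Grm7 at 13.7 FPKM and Grm3 at 10.6 FPKM followed without a gap beyond the spread. Grm4 at 3.12 FPKM and Grm8 at 1.97 FPKM were lower, and Grm6, the receptor of retinal bipolar cells, was at 0.00183 FPKM.

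Among inhibitory receptors, the highest GABA-A genes lay close together, while GABA-B and glycine receptor genes each had a clear leading gene. GABA-A receptors are pentamers of alpha, beta and mostly gamma subunits, and 13 of 19 of their genes were at the floor. Gabra5 at 66.3 FPKM was highest but not apart from the next in order, and Gabra2 at 44.6 FPKM was apart from Gabrb2 at 28.4 FPKM below it. The alpha5 subunit is known for its strong presence in the hippocampus. Gabrd, of extrasynaptic receptors, was at 12.6 FPKM, and the lowest member was Gabrg3 at 1.38 FPKM. Gabrp was listed at 0. For GABA-B, Gabbr1 at 130.0 FPKM was 2.39-fold above its obligatory partner Gabbr2 at 54.5 FPKM. Glycine receptor genes were represented mainly by the beta subunit Glrb at 46.9 FPKM, with Glra2 at 2.57 FPKM and the other alpha subunits between 0.0221 and 0.343 FPKM.

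Receptors for modulators lay mostly under 10 FPKM. Chrm1 at 35.0 FPKM led the muscarinic receptors and was 2.97-fold above Chrm3 at 11.8 FPKM. Chrm4 was at 7.41 FPKM and Chrm5 at 1.06 FPKM, while Chrm2 fell just under the floor at 0.918 FPKM. Only 4 of 16 nicotinic genes were at the floor, Chrnb2 at 11.2 FPKM, Chrna7 at 7.87 FPKM, Chrna4 at 4.44 FPKM and Chrna5 at 1.65 FPKM, and all were apart. Muscle-type subunits were under the floor. Serotonin receptors had 9 of 14 at the floor, with Htr1a at 6.42 FPKM, Htr2c at 6.35 FPKM and Htr3a at 4.89 FPKM highest and not apart. Of the dopamine receptors Drd5 was highest at 5.20 FPKM, 4.82-fold above Drd1a. Adra1d at 18.5 FPKM was 3.97-fold above the next adrenergic receptor gene, Adra2c at 4.65 FPKM. Among other modulators the adenosine receptor gene Adora1 reached 57.7 FPKM, the cannabinoid receptor gene Cnr1 32.0 FPKM, the histamine receptor gene Hrh3 15.6 FPKM and the nociceptin receptor gene Oprl1 13.2 FPKM. The opioid receptors were low, with Oprd1 at 1.66 FPKM and Oprm1 at 0.126 FPKM.

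**Figure D4:**
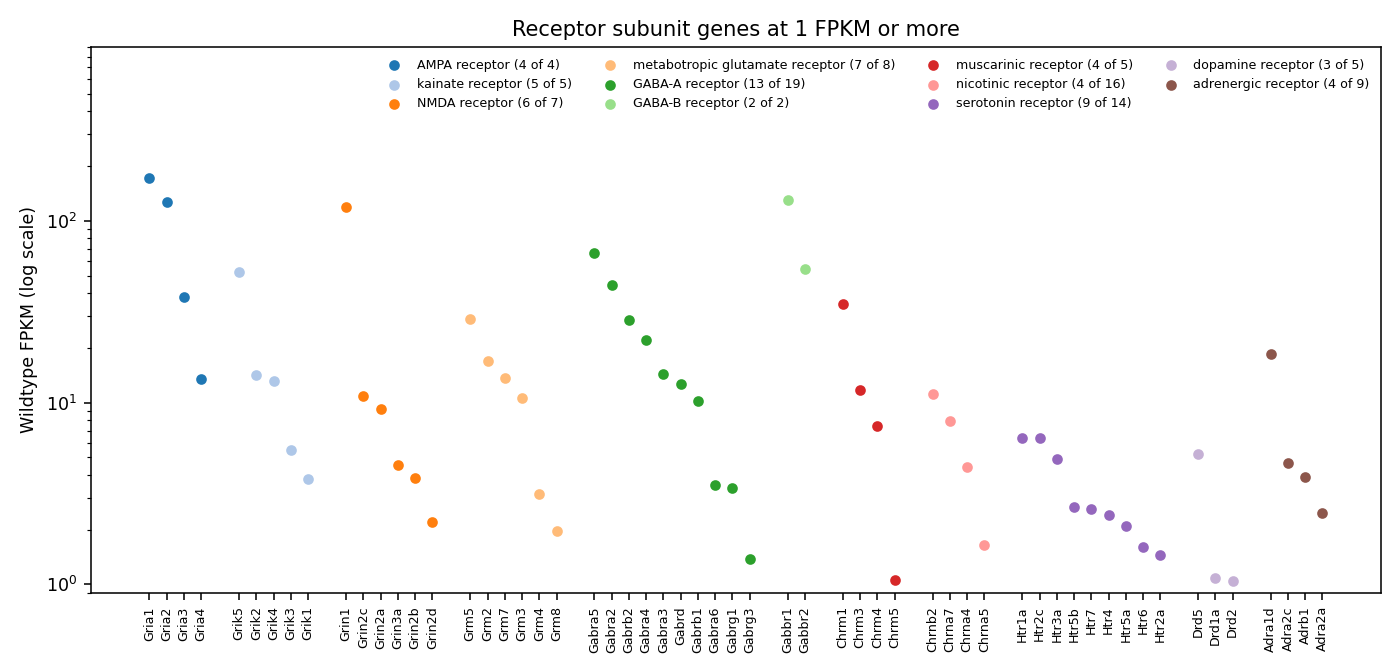
Each point is the wildtype FPKM, on a log scale, of receptor subunit genes at 1 FPKM or more that are reported here, ordered by level within its receptor group; the legend gives the number at the floor of the number measured, which can exceed the points drawn. Gria1 at 171 FPKM, Gabbr1 at 130.0 FPKM, Gria2 at 126 FPKM and Grin1 at 119 FPKM stand above 100 FPKM, and the amine receptors lie under 20 FPKM.

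Secreted signals spanned a wide range. Of 35 genes for neuropeptide precursors and granins 23 were at the floor. After Cck and Sst came Chgb at 206 FPKM, a granin of dense-core vesicles, while Oxt at 0.111 FPKM and Avp at 0.0267 FPKM, peptides of the hypothalamus, were among the lowest. The trophic factor list had 22 of 29 at the floor. Fgf13, an intracellular channel partner, was highest at 69.3 FPKM, then Ptn at 54.3 FPKM and Vegfb at 34.7 FPKM, and Bdnf, the activity-regulated neurotrophin, was at 8.84 FPKM. Gdnf was lowest at 0.0397 FPKM. Immediate early genes, which neuronal activity switches on within minutes, were at the floor in 19 of 20 cases, led by Arc at 42.9 FPKM, Egr1 at 33.5 FPKM and Jun at 30.04 FPKM. Fos was at 5.41 FPKM, and 17 of 18 neighbouring pairs in this list were not apart.

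Long noncoding RNAs reached high levels at a few loci. Of 20 long noncoding RNAs measured 15 were at the floor. The maternally expressed Meg3 at 387 FPKM and the neuronal Snhg11 at 307 FPKM led and were not apart, and Rian, from the same locus as Meg3, was at 148 FPKM. Malat1 stood at 77.6 FPKM. The list of imprinted genes, which can be expressed from 1 parental allele, had 23 of 29 at the floor. Gnas, Meg3 and Snrpn were highest and Phlda2 was listed at 0. Alleles were not told apart here. The X chromosome had 423 of 940 rows at the floor, led by Tmsb4x, Tspan7 at 487 FPKM and Syp. On the Y chromosome 4 of 12 rows were at the floor, Eif2s3y at 16.9 FPKM, Ddx3y at 9.16 FPKM, Kdm5d at 3.81 FPKM and Uty at 2.40 FPKM, while Xist was at 0.0359 FPKM, as the labelled male sex of the mice has it. By share of the sum without small RNAs, chromosome 11 was first at 9.43%, then chromosome 2 at 8.72% and chromosome 7 at 8.61%. The same chromosomes, in the same order, had the most genes at the floor, with 1006, 995 and 932 of 12436.

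Promoters of genes at the floor held more of the dinucleotide CG than those of genes listed at 0. CG is depleted in most of the mouse genome but retained in CpG islands, which cover the starts of many widely used genes. Windows of 300 bases, from 250 before to 50 after the start, came from RefSeq (GRCm38.p6) for coding genes, with 1 autosome and unplaced contigs left out. At the floor 9598 of 11599 such genes had a window, 82.7%, and 6558 of 8082 genes below it, 81.1%. The median ratio of observed to expected CG was 0.778 at the floor and 0.229 below it, and the median count of CG was 21 and 4. Among 2607 genes listed at 0 the ratio was 0.136, and with olfactory, vomeronasal and taste receptors left out it was 0.164 over 1472 genes. Within the genes at the floor the ratio was 0.674 between 1 and 3 FPKM and 0.780 between 3 and 10 FPKM, and it was 0.810 and 0.812 in the next bands. The sets of 100 FPKM or more and those between 0 and 1 FPKM had a window for under 80% of genes, so bands there were not compared. Across the 16156 genes with a window the Spearman correlation of level with the ratio was 0.632, and within those at the floor 0.172, across genes that are not independent replicates. The motif TATAAA, or TTTATA on the other strand, between 45 and 15 bases before the start was in 1.23% of windows at the floor and in 7.08% below it, against 3.60% of all windows. The 100 bases before the start are shown, with CG in capitals, for genes whose window start lay within 50 bases of the GENCODE start used. They are the 3 highest such genes and the first 3 by name among those of the other-tissue lists at 0.
Fth1, chr19:9982546-9982645, plus strand: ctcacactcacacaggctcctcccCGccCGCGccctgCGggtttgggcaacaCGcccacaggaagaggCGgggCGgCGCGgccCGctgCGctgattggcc
Eef1a1, chr9:78481725-78481824, minus strand: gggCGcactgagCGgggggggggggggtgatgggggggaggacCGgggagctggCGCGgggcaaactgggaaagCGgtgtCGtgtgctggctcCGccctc
Aldoa, chr7:126800448-126800547, minus strand: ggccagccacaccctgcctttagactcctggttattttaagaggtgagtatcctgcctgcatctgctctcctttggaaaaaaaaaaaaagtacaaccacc
Acrv1, chr9:36693120-36693219, plus strand: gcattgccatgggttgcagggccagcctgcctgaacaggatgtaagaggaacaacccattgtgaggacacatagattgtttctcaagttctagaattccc
Ahsg, chr16:22891915-22892014, plus strand: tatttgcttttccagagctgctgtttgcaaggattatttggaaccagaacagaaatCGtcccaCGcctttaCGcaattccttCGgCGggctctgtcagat
Fabp2, chr3:122894972-122895071, plus strand: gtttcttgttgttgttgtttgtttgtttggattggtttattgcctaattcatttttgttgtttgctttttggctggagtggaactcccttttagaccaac
Fth1 has 11 CG in these bases and Eef1a1 has 8, while Aldoa, a gene known to have alternative starts, has 0. Of the silent genes the sperm gene Acrv1 and the gut gene Fabp2 have 0 and the liver gene Ahsg has 5. The printed windows thus overlap between high and silent genes, and the difference in the medians is one of sets.

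**Figure D5:**
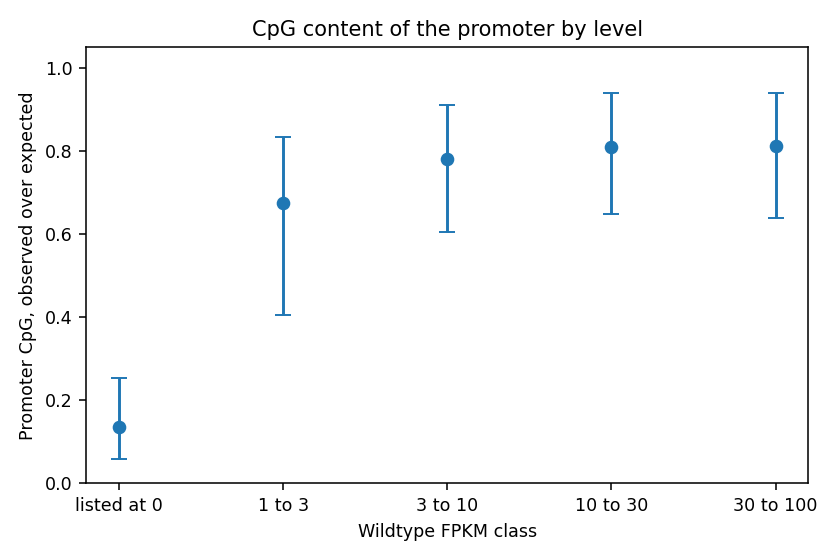
Points are the median ratio of observed to expected CG in the promoter window of coding genes by wildtype FPKM class, and bars run from the lower to the upper quartile; classes with a window for under 80% of genes are left out. The median is 0.136 for genes listed at 0 and lies between 0.674 and 0.812 in the classes at the floor.

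Genes with a higher FPKM also had shorter coding lengths. FPKM divides by transcript length, so such a relation can lie partly in the unit, and that part was not tested. Coding lengths from GENCODE were found for 11908 of 11947 coding genes at the floor. The median coding length was 1512 bases between 1 and 3 FPKM and between 3 and 10 FPKM, 1125 bases between 30 and 100 FPKM and 606 bases at 300 FPKM or more. The Spearman correlation of level with coding length across genes was -0.18, and it was -0.17 with the ribosomal proteins left out. Rpl41, at 575 FPKM, has a coding length of 78 bases.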

How the data were processed

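Hippocampal RNA from 3 wildtype and 3 Nes-cKO mice was read as paired 50 bp reads from stranded poly(A) libraries, per the labels' protocols. CASAVA, Cufflinks, Cuffdiff and the build mm9 are named, without versions, in the submitters' processing notes; the aligner is not given in the sources used here. Per the file headers, the authors deposited 1 FPKM value per gene and genotype, so the number of reads, and with it the precision of a value, is unknown. The splicing tables were not used here.

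From these values, shares of summed FPKM, ranks, medians and Spearman correlations were computed in Python 3.11.15 (with scipy 1.17.1, pandas 2.3.3 and numpy 2.4.6) and tested on simulated levels with known shares. No test of a difference was run. The floor was an FPKM of 1. Families were assigned by symbol patterns, each row to the first family that took it, and cell class lists were matched by symbol or RefSeq synonym, with 4 of the listed genes not matched. Small-RNA rows were recognised by symbol or RefSeq biotype. Lists overlap, and members and lists were chosen with earlier results of these data known. Named genes are the 25 highest (with small RNAs, where the range is given, and without), up to 3 of each family, up to 3 highest and lowest of each list, all of the receptor lists of at most 8 genes, the highest genes of sets with an identical protein and of the sex chromosomes, and 3 on either side of the floor. Any further gene was picked with its value known. Some genes that the rule names are not reported here. Among the rows, 25 carry a symbol turned into a date by a spreadsheet, 20 of them at the floor, and 89 are joint rows of several symbols.

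Names, lengths and promoters came from GENCODE and RefSeq tables of GRCm38, another build than mm9, so no coordinates were combined between them. For each gene the RefSeq promoter nearest to a GENCODE start was taken. Starts tagged as supported by CAGE, a method that reads capped RNA ends, were used first, and principal starts where none was tagged. With neither, the first promoter listed was taken. Genes of chromosome 18 and of unplaced contigs were left out of the promoter comparison.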

Additional observations from a re-analysis of the deposited data

How the results depend on the processing

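No paired analysis was possible because the deposited values are 1 per genotype, and for the same reason no mouse could be left out in turn. Weighting by RefSeq protein length was replaced by GENCODE transcript length. That weighting, leaving out small RNAs, and medians over members at the floor were chosen after seeing the data. Of 456 values under an alternative, 395 lay within 1.5 times the reported one and 61 moved further. Several alternatives could hardly pass that cut, so the 395 say little about stability. Rows below the floor held 0.368% of the sum, and leaving out small RNAs multiplied every other family share by 1.35. Weighting by transcript length moved 35 values and left 27 within 1.5 times. The number of genes was 5824 at a floor of 10 and 18818 for any value above 0. The share of the 10 highest genes was 3.95% without small RNAs and 3.50% weighted by length, and of the 100 highest 18.0% and 15.6%. Small RNAs held 5.29% without the 10 highest genes and 0.961% by length. By length the ribosomal proteins held 2.06%, oxidative phosphorylation 1.54%, ubiquitin conjugation 2.34%, splicing and RNA-binding 2.02%, vesicle release 2.10% and solute carriers 2.02%, so the 2 families highest by FPKM no longer led. Members on 1 list only gave medians of 109 FPKM for glutamatergic, 2.23 for thalamic and 1.08 for striatal markers. Over members at the floor the medians were 22.6 FPKM for CA2, 1.59 for mossy and Cajal-Retzius, 2.34 for progenitors, 3.27 for pericytes, 2.40 for choroid plexus, 5.35 for blood, 6.32 for striatum, 1.98 for monoamine and cholinergic neurons, 12.4 for liver, 3.03 for muscle, 1.37 for testis and 1.09 for pancreas. In the Nes-cKO values the medians were 0.0355 FPKM for blood, 8.95 for cerebellum, 0.162 for muscle, 0.0209 for testis and 0 for pancreas. The cause was not tested. In those values 275 of 363 neighbouring pairs, and 95 of the 101 called apart, kept their order. The fold for calling pairs apart was itself set from the gap to these Nes-cKO values. The 95 of 101 are therefore no independent check of the order.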
